A study of Mus musculus with 12 samples.

Results

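The genes described here are 10 components of the TGF-beta signalling pathway that microglia depend on, followed in sorted brain cells of old mice. They were chosen by name and not by a rule on their measured values, but with earlier results of these data known. They are the ligand gene Tgfb1, its carrier Nrros, the receptor genes Tgfbr1 and Tgfbr2, the SMAD genes Smad2, Smad3, Smad4 and Smad7, and the regulators Ski and Pmepa1. All 10 were found among the 47643 gene identifiers of the count matrix, in which 18571 genes had at least 1 count and 10254 had the total of at least 20 counts required for testing. Each of the 10 reached that total.

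Gene expression was measured by bulk RNA sequencing in 10 samples from 5 male p16-3MR mice on a C57BL/6 background, aged 113, 115, 116, 116 and 116 weeks (mice 1 to 5). Every sample carried the same transgene, in which the p16 promoter drives a reporter that includes a red fluorescent protein, so that fluorescence reports the activity of the transgenic promoter and not the endogenous protein. Each mouse gave 1 sample of cells with high fluorescence, labelled RFPpos, and 1 with low fluorescence, labelled RFPneg, which the study's methods call RFP High and RFP Low. The cells were viable brain cells left after enzymatic dissociation and removal of myelin, sorted on viability and fluorescence with no gate for microglia, and the bulk samples included neither young mice nor mice without the transgene. The 2 single-cell samples of the series, from female mice, were not analysed here.

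The comparison of RFPpos with RFPneg asks how cells with high fluorescence from the p16 reporter differ from cells with low fluorescence in the same animal. The RFPneg samples had 177287 to 415834 counts on genes (median 248471) and the RFPpos samples 222560 to 289713 (median 242798), so that 3 counts in a sample corresponded to 7.21 to 16.9 CPM (the count of a gene scaled to a fixed total of counts on genes). The CPM values of genes given below were in addition scaled by a TMM factor for each library. The microglia core list of 20 marker genes took 2.08% ± 0.426 (SD, n = 5) of the counts in RFPneg and 4.27% ± 0.418 (SD, n = 5) in RFPpos, and its share was higher in RFPpos in all 5 mice. All 20 genes of the list were called higher in RFPpos, and the list of CNS-associated macrophage markers was at 0.0225% to 0.0257% and 0.0202% to 0.0383% of the counts. Several lists of markers of other cells had lower shares in RFPpos in all 5 mice, while the astrocyte list was at 0.337% to 0.499% of the counts in RFPneg and 0.0894% to 0.512% in RFPpos, higher in 3 mice and lower in 2, and the B cell list was higher in 2 mice and lower in 3. The endothelial list (10 genes) took 0.164% to 0.707% of the counts in RFPneg and 0.0117% to 0.0323% in RFPpos, the oligodendrocyte list 0.442% to 1.77% and 0.0571% to 0.334%, and the neutrophil list 0.234% to 0.719% and 0% to 0.0193%. In such bulk samples a lower number of cells of a type and less RNA per cell cannot be told apart. Counts assigned to no gene were also more frequent in RFPpos (41.5% ± 4.27 against 34.9% ± 2.24, SD, n = 5 each), the part of which in the results was not tested. The counts do not say which cells a transcript came from, and therefore each of the 10 genes is given both relative to all counts and relative to the microglia core genes.

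TGF-beta is made as a latent complex that is held by a carrier protein until integrins release it, and in the brain the carrier on microglia is the product of Nrros. Released TGF-beta binds the type II receptor, which recruits and phosphorylates the type I receptor, and the type I receptor then phosphorylates SMAD2 and SMAD3, which enter the nucleus with SMAD4. Microglia need this signal to take on and keep their characteristic expression programme, and SMAD7, SKI and PMEPA1 restrain it at different steps.

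Relative to all counts, 3 of the 10 genes were higher in RFPpos at an adjusted p-value under 0.05 and 0 were lower (edgeR quasi-likelihood test with the mouse as a block, Benjamini-Hochberg adjustment over all genes tested). At an unadjusted p under 0.05 the count of lower genes was also 0, as it was with DESeq2 and limma. These were Pmepa1, Tgfbr1 and Ski. Over all genes tested, 4.98% were called higher and 8.52% lower, 13.5% in either direction. With the study's additional threshold of an absolute log2 fold change above 1, 2 of the 10 genes were called higher, Pmepa1 and Tgfbr1, beside 3.24% of all genes tested. The median log2 fold change of the 10 genes was 0.70 and that of all genes tested was −0.11, and 8 of the 10 genes had a value above 0. Together the 10 genes took 0.175% ± 0.0160 of the counts in RFPneg and 0.341% ± 0.0325 in RFPpos (SD, n = 5 each), and the share was higher in RFPpos in all 5 mice. Of these counts, 51.0% to 65.8% were on Tgfbr1 and Pmepa1 in the RFPneg samples and 69.0% to 75.5% in the RFPpos samples.

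**Figure D1:**
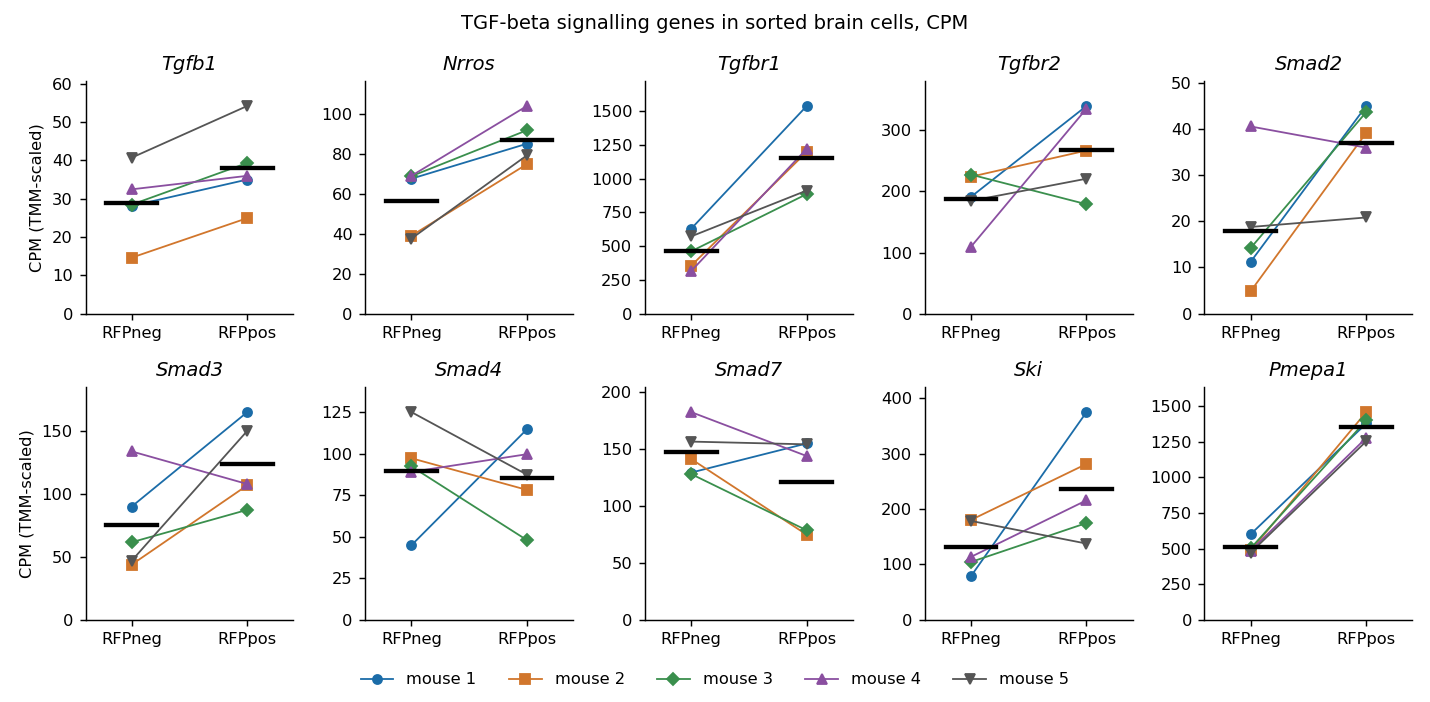
TMM-scaled CPM (vertical axes, each starting at 0) of the 10 TGF-beta signalling genes in the RFPneg and RFPpos samples, with a line for each of the 5 mice and a black bar at the group mean. For Pmepa1, Tgfbr1 and Nrros all RFPpos samples lie above all RFPneg samples, and for the other 7 genes the groups overlap. The share of all genes tested that separate in this way is not given, and Nrros was not called.

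The ligand and its carrier were expressed at low levels. Tgfb1 (ENSMUSG00000002603; GRCm38 chr7:25687002-25705077, + strand) encodes the TGF-beta1 precursor, and it had 41 counts in all over the RFPneg samples and 45 over the RFPpos samples. Its level was 28.1, 14.6, 28.4, 32.4 and 40.7 CPM in RFPneg of mice 1 to 5 and 35.0, 24.9, 39.3, 35.9 and 54.2 CPM in RFPpos. The RFPpos sample was the higher one in each of the 5 mice, mouse 2 was the lowest and mouse 5 the highest in both populations, and the groups overlapped. The log2 fold change was 0.40 with a standard error (SE) of 0.48 and a 95% interval of −0.55 to 1.35 (edgeR, adjusted p = 0.705).

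Nrros (ENSMUSG00000052384; chr16:32142785-32165594, − strand), the carrier that tethers latent TGF-beta1 on microglia and macrophages, had 78 and 104 counts. It was at 67.5, 39.0, 68.7, 68.9 and 37.6 CPM in RFPneg of mice 1 to 5 and at 84.9, 74.7, 91.7, 103.8 and 79.2 CPM in RFPpos. All RFPpos samples were thus above all RFPneg samples, and mice 2 and 5 were the low ones in both populations. With a log2 fold change of 0.65 (SE 0.33, 95% interval −0.01 to 1.31), Nrros did not pass the test (edgeR, adjusted p = 0.224).

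Of the 2 receptor subunits, Tgfbr1 was called higher and Tgfbr2 was not, and the difference between their fold changes was not tested. Tgfbr1 (ENSMUSG00000007613; chr4:47353222-47414931, + strand), the type I receptor kinase that phosphorylates SMAD2 and SMAD3, had 641 counts in the RFPneg samples and 1373 in the RFPpos samples. Its level was 630, 355, 462, 316 and 573 CPM in RFPneg of mice 1 to 5 and 1539, 1199, 886, 1222 and 912 CPM in RFPpos. The lowest RFPpos sample, that of mouse 3, was above the highest RFPneg sample, that of mouse 1. The mean was 467 ± 135 CPM in RFPneg and 1152 ± 267 CPM in RFPpos (SD, n = 5 each), which is 1.31 on the log2 scale (SE 0.20, 95% interval 0.91 to 1.71; edgeR, adjusted p = 7.1e-07), with values within mice from 0.67 in mouse 5 to 1.95 in mouse 4. Over each mouse left out in turn the log2 fold change ranged from 1.17 to 1.48.

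Tgfbr2 (ENSMUSG00000032440; chr9:116084293-116175360, − strand), the type II receptor that binds the ligand first, had 262 and 321 counts. It was at 191, 224, 227.5, 109 and 185 CPM in RFPneg of mice 1 to 5 and at 340, 267, 179, 335 and 221 CPM in RFPpos. It was higher in RFPpos in 4 mice and lower in mouse 3, and the groups overlapped. The log2 fold change of 0.50 (SE 0.24, 95% interval 0.03 to 0.97) did not pass the test (edgeR, adjusted p = 0.177). Within a sample, Tgfbr1 had 1.59 to 3.29 counts for each count of Tgfbr2 in RFPneg and 3.64 to 4.95 in RFPpos, and this ratio, which needs no scaling of the libraries, was higher in RFPpos in all 5 mice. The ratio was chosen after the values of both genes were seen and was therefore not tested.

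The promoters of the called genes are shown because SMAD proteins bind short motifs in DNA and because members of the pathway are themselves regulated at the level of transcription. Windows of 250 bases before a transcription start in RefSeq (GRCm38.p6) were matched by symbol for 6 of the 10 genes, namely Tgfb1, Nrros, Tgfbr1, Tgfbr2, Smad3 and Ski, and not for Smad2, Smad4, Smad7 and Pmepa1. Of the called genes this left Tgfbr1, with 2 annotated starts, and Ski. The windows are written 5′ to 3′ on the strand of the gene, and capitals mark the SMAD box CAGAC, the GC-rich SMAD motif GGCGC and the PU box GAGGAA, the core of sites for the myeloid factor PU.1, searched on both strands. Matches on the 2 strands were counted separately and may overlap. The first Tgfbr1 window is chr4:47352972-47353221 (+ strand), the second is chr4:47385966-47386215 (+ strand), inside the gene, and the Ski window is chr4:155222536-155222785 (− strand), the end of which lies inside the GENCODE gene.
Tgfbr1, first start: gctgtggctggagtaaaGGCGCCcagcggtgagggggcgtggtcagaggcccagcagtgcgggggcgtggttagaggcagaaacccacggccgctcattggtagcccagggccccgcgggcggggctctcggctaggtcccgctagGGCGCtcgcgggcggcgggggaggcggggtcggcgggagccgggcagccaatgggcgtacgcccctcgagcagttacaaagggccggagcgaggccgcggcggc
Tgfbr1, second start: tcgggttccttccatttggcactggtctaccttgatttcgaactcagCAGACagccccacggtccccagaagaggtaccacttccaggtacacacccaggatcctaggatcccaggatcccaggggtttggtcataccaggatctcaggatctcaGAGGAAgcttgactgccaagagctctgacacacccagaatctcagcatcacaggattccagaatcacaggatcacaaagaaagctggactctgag
Ski: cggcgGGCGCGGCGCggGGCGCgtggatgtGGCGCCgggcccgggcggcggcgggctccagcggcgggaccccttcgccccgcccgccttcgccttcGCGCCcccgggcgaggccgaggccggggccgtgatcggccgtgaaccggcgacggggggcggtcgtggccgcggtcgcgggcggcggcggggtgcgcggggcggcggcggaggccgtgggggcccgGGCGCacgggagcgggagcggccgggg

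The first Tgfbr1 window held 3 matches to GGCGC and 0 to CAGAC or GAGGAA, and 74.8% of its bases were G or C. The second held 1 match to CAGAC, 1 to GAGGAA and 0 to GGCGC at 52.8% G or C. The Ski window held 7 matches to GGCGC and 0 to the other motifs at 87.6% G or C. Of the windows not printed, those of Tgfbr2 and Nrros each held 1 CAGAC, that of Tgfbr2 also 1 GAGGAA, that of Tgfb1 1 GGCGC and that of Smad3 0 of the 3 motifs. Among 32851 promoter windows of the same length, with a median of 52.4% G or C, 42.2% held CAGAC, 32.0% held GGCGC and 23.3% held GAGGAA. A match describes the letters of the window, not a bound site.

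None of Smad2, Smad3, Smad4 and Smad7 passed the test relative to all counts (edgeR; Smad3 had an unadjusted p of 0.0146, the other 3 0.0595 or more). Smad2 (ENSMUSG00000024563), one of the 2 SMADs that the type I receptor phosphorylates, was the least expressed of the 10 genes, with 25 counts in RFPneg and 44 in RFPpos. It was at 11.2, 4.87, 14.2, 40.5 and 18.8 CPM in RFPneg of mice 1 to 5 and at 45.0, 39.2, 43.7, 35.9 and 20.8 CPM in RFPpos. The RFPneg sample of mouse 4 stood among the RFPpos samples, and the RFPneg samples of mice 1 and 2 rested on 2 counts and 1 count. The log2 fold change was 1.08, but its SE of 0.56 left a 95% interval of −0.04 to 2.20 (edgeR, adjusted p = 0.235).

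Smad3 (ENSMUSG00000032402; chr9:63646767-63757994, − strand), the other receptor-activated SMAD, had 99 and 146 counts. Its level was 89.9, 43.8, 61.6, 133.7 and 46.9 CPM in RFPneg of mice 1 to 5 and 164.9, 106.8, 87.3, 107.8 and 150.0 CPM in RFPpos. It was higher in RFPpos in 4 mice, and mouse 4, in which RFPneg was at its highest, went the other way. Its log2 fold change was 0.76 (SE 0.30, 95% interval 0.16 to 1.36; edgeR, adjusted p = 0.0887), and without mouse 4 it was 1.09 (adjusted p = 0.026), so that the call turned on that mouse.

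Smad4 (ENSMUSG00000024515), the common partner that carries the activated SMADs into transcription complexes, had 129 and 102 counts and did not move in a common direction. It was at 45.0, 97.4, 92.4, 89.2 and 125.2 CPM in RFPneg of mice 1 to 5 and at 114.9, 78.3, 48.0, 99.8 and 87.5 CPM in RFPpos. It was higher in RFPpos in mice 1 and 4 and lower in mice 2, 3 and 5, with a log2 fold change of −0.11 (SE 0.31, 95% interval −0.73 to 0.52; edgeR, adjusted p = 0.903). Its sign was positive without mouse 3 (0.09) or without mouse 5 (0.01).

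Of the 3 genes that restrain the pathway, Pmepa1 and Ski were called higher in RFPpos and Smad7 was not called. Pmepa1 (ENSMUSG00000038400; chr2:173224458-173276533, − strand) is itself induced by TGF-beta and encodes a membrane protein that keeps SMAD2 and SMAD3 from the receptor. It was the most highly expressed of the 10 genes, with 690 counts in RFPneg and 1628 in RFPpos. Its level was 601, 487, 502, 486 and 472.5 CPM in RFPneg of mice 1 to 5 and 1379, 1459, 1401, 1278 and 1254 CPM in RFPpos. The groups were far apart, and within each group the samples lay close together except for the RFPneg sample of mouse 1, which stood above the other 4. The mean was 510 ± 52.2 CPM in RFPneg and 1354 ± 86.2 CPM in RFPpos (SD, n = 5 each), which is 1.41 on the log2 scale (SE 0.19, 95% interval 1.04 to 1.79; edgeR, adjusted p = 2.03e-08). The 5 mice gave similar values, from 1.20 in mouse 1 to 1.58 in mouse 2, and leaving out each mouse gave 1.38 to 1.47.

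Smad7 (ENSMUSG00000025880), the inhibitory SMAD that blocks the type I receptor and is also a target of the pathway, had 201 and 143 counts. It was at 129, 141, 128, 182 and 157 CPM in RFPneg of mice 1 to 5 and at 155, 74.7, 78.6, 144 and 154 CPM in RFPpos. Mice 2 and 3 had the low RFPpos samples, the other 3 stayed within the range of RFPneg, and the level was lower in RFPpos in 4 of the 5 mice. Its log2 fold change was −0.33 (SE 0.26, 95% interval −0.85 to 0.19; edgeR, adjusted p = 0.505). Within a sample, Pmepa1 had 2.67 to 4.65 counts for each count of Smad7 in RFPneg and 8.14 to 19.5 in RFPpos, a ratio that was likewise chosen after the values were seen and not tested.

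Ski (ENSMUSG00000029050; chr4:155154075-155222592, − strand) encodes a co-repressor that binds SMAD complexes on DNA, and it had 180 and 281 counts. It was at 78.7, 180, 104, 113.5 and 178 CPM in RFPneg of mice 1 to 5 and at 375, 281, 175, 216 and 137.5 CPM in RFPpos. It was higher in RFPpos in 4 mice and lower in mouse 5, and mouse 1 had both the lowest RFPneg sample and the highest RFPpos sample. For Ski the log2 fold change was 0.79 (SE 0.26, 95% interval 0.28 to 1.30; edgeR, adjusted p = 0.0266). The call was lost without mouse 1 (0.49, adjusted p = 0.266), and also without mouse 2, 3 or 4 (adjusted p from 0.0749 to 0.0888), with library sizes not scaled by TMM (0.0601), with a minimum count per sample (0.0771) and with DESeq2 (0.2).

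The libraries count 1 tag near the 3′ end of a transcript, so that levels of different genes can be ordered without regard to transcript length. In RFPpos the order of mean CPM was Pmepa1, Tgfbr1, Tgfbr2, Ski, Smad3, Smad7, Nrros, Smad4, Tgfb1 and Smad2, and in RFPneg it was Pmepa1, Tgfbr1, Tgfbr2, Smad7, Ski, Smad4, Smad3, Nrros, Tgfb1 and Smad2. In both populations the only neighbours whose samples did not overlap were Tgfbr1 and Tgfbr2. All other neighbours in the order overlapped, Pmepa1 and Tgfbr1 included.

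Across the 10 samples, the genes most like Tgfbr1 among 1610 genes with a mean of at least 100 CPM included Itgam, which encodes the complement receptor subunit CD11b (Pearson's r in log2 CPM = 0.982), Cst3, which encodes cystatin C (0.976), Prkcd (0.975) and P2ry12, the ADP receptor of microglia (0.973). Those most like Pmepa1 were Ctss, the lysosomal protease cathepsin S (0.984), Ctsb (0.976), Sparc (0.973), Tmem119 (0.973) and Hpgds (0.973), and r between Tgfbr1 and Pmepa1 was 0.909. All these genes share the same 10 libraries, in which the share of microglia core counts also differed between the populations, and the values are given as a description.

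Relative to the 20 microglia core genes the picture changed. In the same fit with library sizes taken from these genes, 0 of the 10 genes were called higher in RFPpos (0.146% of all genes tested) and 3 were called lower (51.4% of all genes tested, 51.5% in either direction), namely Smad7, Smad4 and Tgfbr2. Over all genes tested the median on this scale was −1.21, a shift of −1.11 from the scaling to all counts, and that of the 10 genes was −0.41. A share of 3 of 10 genes called lower was below that of all genes tested, and the difference was not tested.

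**Figure D2:**
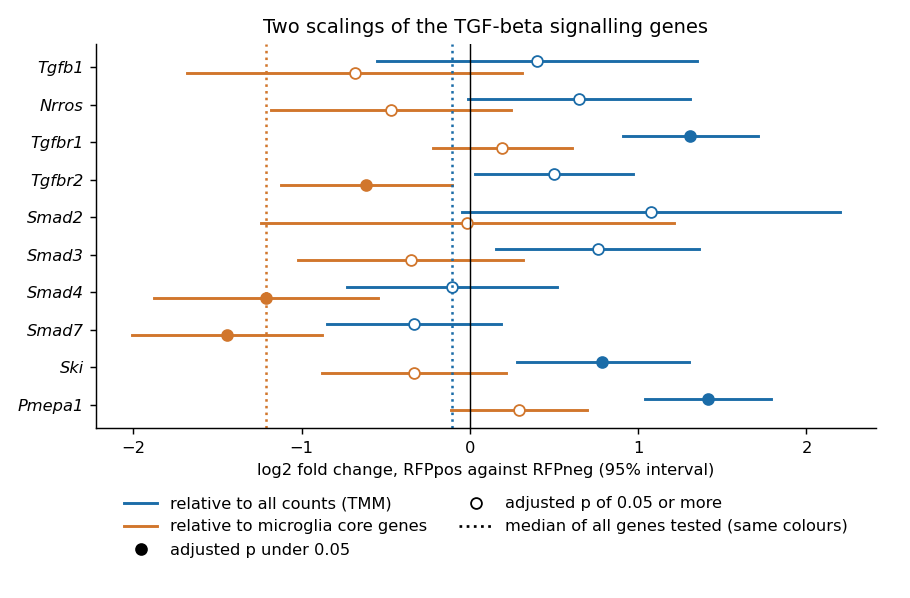
Log2 fold change of RFPpos against RFPneg (horizontal axis) for the 10 genes with 95% intervals, relative to all counts in blue and relative to the microglia core genes in orange, with dotted lines at the median of all genes tested. The point values of Pmepa1 and Tgfbr1 are to the right of 0 on both scales, but on the core scale (0.29 and 0.19) their intervals include 0. Smad7 and Smad4 lie at −1.44 and −1.21 on the core scale, at or below the median of all genes.

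Pmepa1 was at 23.0, 28.6, 27.3, 28.7 and 20.5 counts per 1000 microglia core counts in RFPneg of mice 1 to 5 and at 25.9, 33.8, 32.3, 29.9 and 34.1 in RFPpos. Each mouse had the higher value in RFPpos, but the groups overlapped, and the log2 fold change on this scale was 0.29 (SE 0.20, 95% interval −0.11 to 0.69; edgeR, adjusted p = 0.217). Tgfbr1 was at 18.6 to 25.1 counts per 1000 core counts in RFPneg and at 20.4 to 28.9 in RFPpos, higher in 3 of the 5 mice, with a log2 fold change of 0.19 (SE 0.21, 95% interval −0.22 to 0.61; adjusted p = 0.427). Both genes thus differed between the populations by an amount that this scale could not tell from that of the microglia core genes, and the intervals allowed a difference of up to 0.69 and 0.61 on the log2 scale.

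Smad7 was at 4.95, 8.31, 6.94, 10.8 and 6.78 counts per 1000 core counts in RFPneg of mice 1 to 5 and at 2.91, 1.73, 1.81, 3.36 and 4.19 in RFPpos. The groups did not overlap on this scale, and all 5 mice were lower in RFPpos. The log2 fold change was −1.44 (SE 0.28; edgeR, adjusted p = 3.13e-05), and it stayed between −1.65 and −1.26 when each mouse was left out. Its 95% interval of −2.01 to −0.877 included −1.21, the median of all genes tested on this scale. Of all genes tested, 51.4% were called lower on this scale.

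Smad4 was lower per core count in 4 mice and higher in mouse 1, with a log2 fold change of −1.21 (SE 0.33; edgeR, adjusted p = 0.00218), the same as the median of all genes on this scale. For Tgfbr2 the value was −0.62 (SE 0.25; edgeR, adjusted p = 0.0382), but leaving out mouse 2 (−0.49, adjusted p = 0.175) or mouse 3 (−0.37, adjusted p = 0.307) ended the call. The remaining 5 genes were not called on this scale, at −0.68 for Tgfb1, −0.47 for Nrros, −0.35 for Smad3, −0.33 for Ski and −0.02 for Smad2 (adjusted p from 0.237 to 0.979), and each of them had a positive value relative to all counts. The endothelial, oligodendrocyte, neutrophil and monocyte marker lists had lower shares of all counts in RFPpos in all 5 mice. The part of other cells in the counts of Smad7, Smad4 and Tgfbr2 was not tested.

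**Figure D3:**
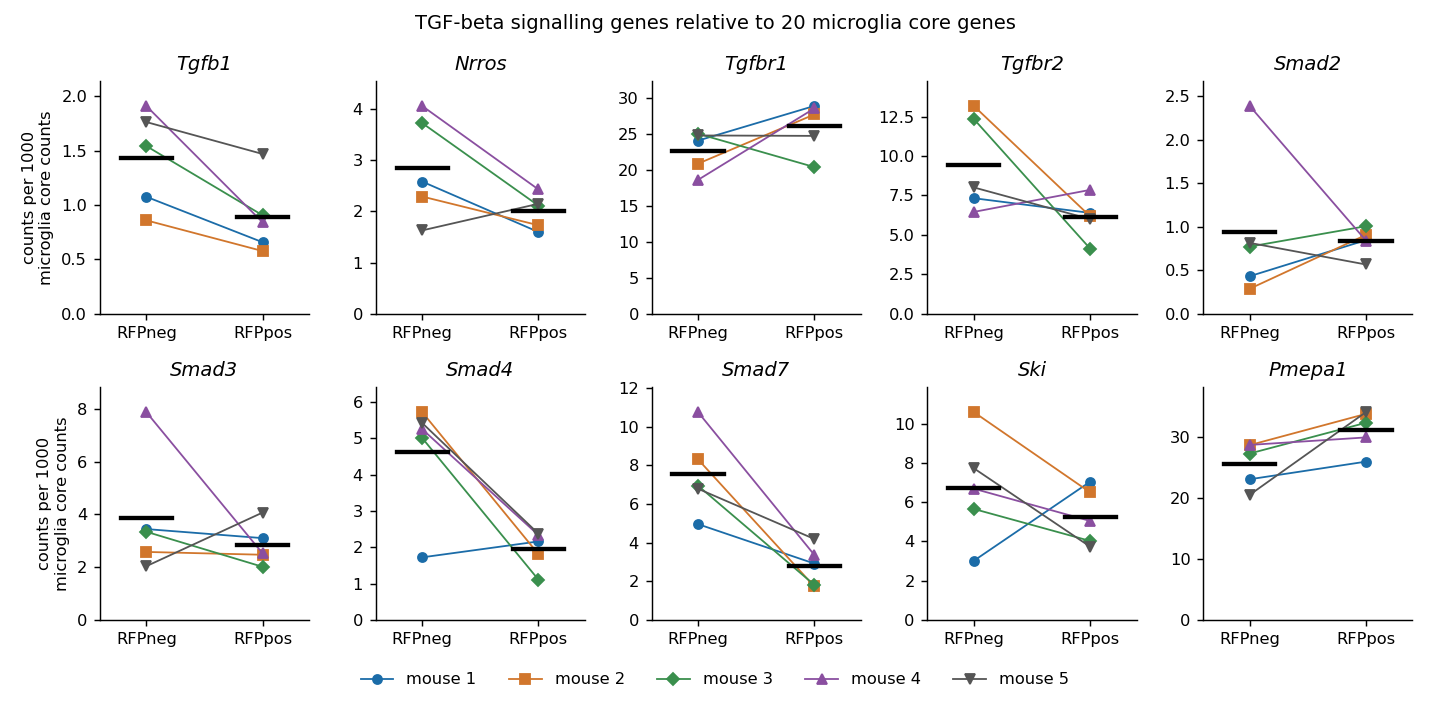
Counts of each of the 10 genes per 1000 counts of the 20 microglia core genes (vertical axes, each starting at 0) in RFPneg and RFPpos, with a line for each mouse and a black bar at the group mean. In all 5 mice RFPpos is the lower sample for Smad7 and Tgfb1 and the higher one for Pmepa1, and only for Smad7 are the populations separate. On this scale 51.4% of all genes tested were called lower, and the share of them that separate is not given.

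The other genes of the pathway were taken from lists of ligands and activators, receptors, and SMADs with their regulators, 48 genes of which 40 had enough counts to be tested. Of these, 5 were called higher in RFPpos and 8 lower, beside 4.98% and 8.52% of all genes tested, with a median log2 fold change of −0.01 (all genes tested −0.11). Relative to the microglia core, 0 of the 40 were called higher and 21 lower, a share near the 51.4% of all genes tested that were called lower on that scale. These were 6 of 9 tested ligand and activator genes, 6 of 10 receptor genes and 9 of 21 SMAD and regulator genes.

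Among the 9 tested genes for other ligands and activators, 2 were higher in RFPpos and 2 lower, beside 4.98% and 8.52% of all genes tested. Both higher genes encode integrin subunits. Itgb5, the beta5 subunit, was at 146 to 272 CPM in RFPneg and at 387 to 575 CPM in RFPpos (log2 fold change 1.29 ± 0.22 SE; edgeR, adjusted p = 8.73e-06), and Itgav, the alphav subunit with which it pairs to release latent TGF-beta, at 28.4 to 67.5 and 78.6 to 147.7 CPM (1.14 ± 0.32; adjusted p = 0.00925). Relative to the microglia core these were 0.18 and 0.02. Itgb8, for the partner of alphav that activates the TGF-beta1 held by the Nrros product, had 115 and 71 counts and did not pass the test (−0.67; adjusted p = 0.332).

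The 2 genes called lower on that list were Tgfb2, a second ligand gene, and Ltbp4, for an extracellular matrix protein that binds latent TGF-beta. Tgfb2 was at 67.5 to 151.7 CPM in RFPneg and at 0 to 50.0 CPM in RFPpos (log2 fold change −2.19 ± 0.38 SE; edgeR, adjusted p = 9.62e-06). Within a sample there were 0.103 to 0.417 counts of Tgfb1 for each count of Tgfb2 in RFPneg and 0.7 to 3.0 in the 4 RFPpos samples with any Tgfb2, a ratio chosen after seeing the values and not tested. Ltbp4 had 266 counts in RFPneg and 3 in RFPpos, a CPM ratio of 77.6 (95% counting interval 26.3 to 379).

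Of the 10 tested genes for other receptors, 0 were higher (0 also at an unadjusted p under 0.05) and 3 lower, beside 4.98% and 8.52% of all genes tested, and the 3 are each known from endothelial cells. Acvrl1, the type I receptor ALK1, was at 37.9 to 112 CPM in RFPneg and at 0 to 14.2 CPM in RFPpos (log2 fold change −3.17 ± 0.61 SE; edgeR, adjusted p = 6.11e-05), and Eng, the co-receptor endoglin, at 50.6 to 162 and 25.0 to 56.9 CPM (−1.43 ± 0.35; adjusted p = 0.00188). Tgfbr3, the co-receptor betaglycan, had 40 and 3 counts, a ratio of 11.7 (95% counting interval 3.72 to 59.0), and its call was lost when mouse 3 or mouse 4 was left out (adjusted p = 0.0878 and 0.134). The activin and BMP receptor genes Acvr1, Acvr1b, Acvr2a, Acvr2b, Bmpr1a, Bmpr1b and Bmpr2 did not pass the test. All 10 endothelial marker genes were called lower in RFPpos as well, and the part of these cells in these values was not tested.

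Among the 21 tested SMAD genes and regulators, 3 were called higher in RFPpos and 3 lower, beside 4.98% and 8.52% of all genes tested. Skil, the co-repressor related to Ski, was higher in RFPpos. It was at 116 to 161 CPM in RFPneg and at 225 to 310 CPM in RFPpos, with no overlap (log2 fold change 0.95 ± 0.23 SE; edgeR, adjusted p = 0.00154), and the call held with each mouse left out (adjusted p up to 0.0146). The genes of the acetyltransferase co-activators CBP and p300 that SMADs recruit, Crebbp (0.77; adjusted p = 0.0177) and Ep300 (0.71; adjusted p = 0.0497), were near the threshold. Crebbp was not called without mouse 1, 2 or 5 (adjusted p from 0.0519 to 0.0706), and Ep300 not without mouse 1, 2, 3 or 5 (adjusted p from 0.0804 to 0.229), nor with DESeq2's size factors (0.0672) or unscaled library sizes (0.0945). Relative to the microglia core, Skil, Crebbp and Ep300 turned negative, at −0.18, −0.35 and −0.40, and were not called (adjusted p from 0.216 to 0.543).

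Lower in RFPpos were Fkbp1a, whose product FKBP12 holds the type I receptor inactive (log2 fold change −1.30 ± 0.27 SE; edgeR, adjusted p = 0.000254), and Smad6, the inhibitory SMAD of BMP signalling, with 70 and 3 counts (ratio 20.4, 95% counting interval 6.71 to 101). Dab2, an adaptor of receptor endocytosis, was also called (−1.07 ± 0.36; adjusted p = 0.0346), but not without mouse 2, 3 or 4 (adjusted p from 0.0966 to 0.338). The genes of the phosphorylated SMADs of the BMP arm, Smad1 (0.73; adjusted p = 0.194) and Smad5 (−0.04; adjusted p = 0.964), did not pass the test.

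**Figure D4:**
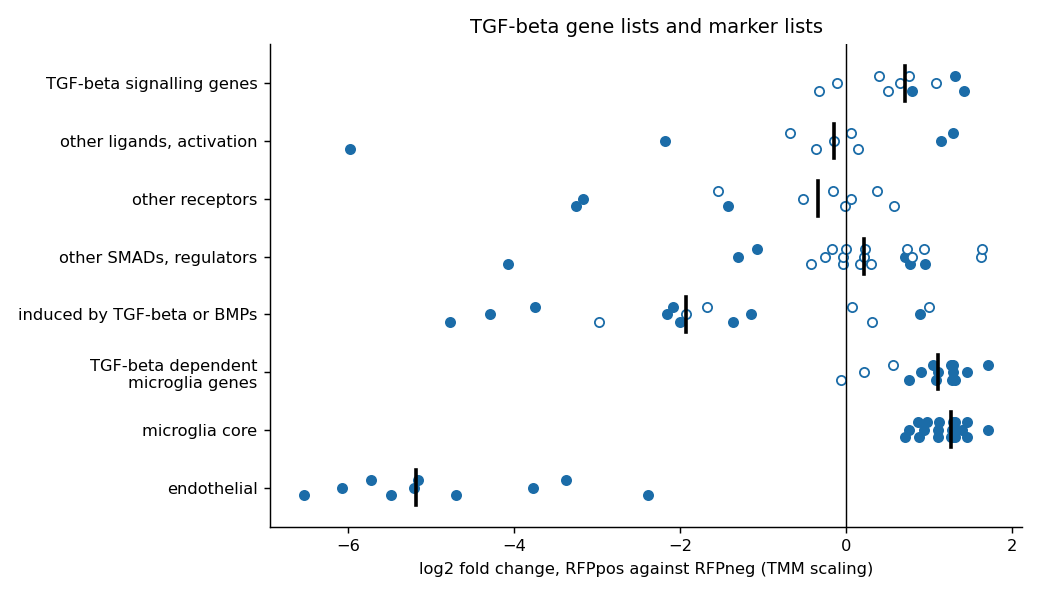
Log2 fold change of RFPpos against RFPneg relative to all counts (horizontal axis) for each tested gene of the 10 TGF-beta signalling genes, the other pathway lists, 2 lists of target genes and 2 marker lists, with filled points for genes called, open points for the rest and a black bar at the median. The TGF-beta dependent microglia genes, 9 of which are also on the microglia core list, have a median of 1.10 and the core list one of 1.26, and the genes induced by TGF-beta or BMPs in many cells lie mostly below 0 (median −1.93).

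Targets of the pathway were taken from 2 lists. Of 15 genes listed from general knowledge as TGF-beta dependent in microglia, 12 were higher in RFPpos and 0 lower (4.98% and 8.52% of all genes tested). Their median log2 fold change was 1.10, and their dependence on TGF-beta was not tested here. Fcrls, an Fc receptor-like gene, was at 174 to 354 CPM in RFPneg and at 500 to 984 CPM in RFPpos (log2 fold change 1.71 ± 0.21 SE; edgeR, adjusted p = 1.14e-09). C1qa, the complement C1q A chain (1.29), Tmem119, a microglial membrane protein (1.28), and Siglech, a sialic acid binding lectin (1.26), were called with adjusted p-values up to 7.1e-07. The list is not separate from the microglia core list, which holds 9 of these 15 genes, and of the 6 genes outside it 3 were called higher. Relative to the microglia core, 1 of the 15 was called higher, Fcrls (0.59 ± 0.22; adjusted p = 0.0215), and 3 were called lower, all 3 from outside the core list (0.146% and 51.4% of all genes tested).

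Of 15 tested genes that TGF-beta or the related BMPs induce in many cell types, 1 was called higher and 8 lower (4.98% and 8.52% of all genes tested), with a median log2 fold change of −1.93. The list mixes both ligand families, and Id1, Id2 and Id3, which are among the 8 genes called lower, are best known as BMP targets. The smallest p-values were those of Tsc22d1, at 112 to 474 CPM in RFPneg and 17.5 to 39.9 CPM in RFPpos (−3.75 ± 0.30 SE; edgeR, adjusted p = 2.85e-16), Id1, an inhibitor of DNA binding with 364 and 11 counts (−4.78 ± 0.39; adjusted p = 1.18e-15), Fn1, for fibronectin, with 402 and 20 counts (−4.29 ± 0.35; adjusted p = 1.27e-15), and Id3, with 484 and 109 counts (−2.0 ± 0.25; adjusted p = 4.99e-09). Nuak1, a kinase gene, was higher (0.89 ± 0.25; adjusted p = 0.00954), but not without mouse 2 or mouse 3 (adjusted p = 0.0893 and 0.0905). Relative to the microglia core its value was −0.20 (adjusted p = 0.526), and 0 of the 15 genes were called higher and 12 lower, beside 0.146% and 51.4% of all genes tested. Pmepa1, which is also a target of the pathway, had a log2 fold change of 1.41, above that of every tested gene on this list. Several genes of the list are strongly expressed by endothelial and mural cells, whose marker lists were lower in RFPpos in all 5 mice (mural genes 0.0236% to 0.0520% of the counts in RFPneg and 0.00135% to 0.0112% in RFPpos), and the part of these cells was not tested.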

How the data were processed

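RNA from the sorted bulk samples was made into QuantSeq 3′ FWD libraries, which the authors processed in Lexogen's FWD pipeline for unique molecular identifiers. What they deposited are raw counts per gene, without normalization or pooling. The submitters' processing notes name mm10, and the annotation used for counting is not given in the sources used here. Reads on no gene (32.1% to 48.6% of all counts per sample) and ambiguous reads (0.295% to 0.436%) were left out. Symbols (found for 47224 of 47643 identifiers) and coordinates came from GENCODE M21 on GRCm38, the assembly of mm10. Smad4 overlaps a pseudogene that the matrix does not hold.

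Genes with at least 20 counts in total (10254) were fitted with edgeR 4.0.16 in R 4.3.3 (glmQLFit and glmQLFTest, TMM scaling, mouse as a block), with Benjamini-Hochberg adjustment over all of them. SEs were derived from the log2 fold change and its F statistic. The study's likelihood ratio test was an alternative, as were DESeq2 1.42.0, limma 3.58.1 with voom, other scalings and filters, no block and each mouse left out. A minimum count per sample (filterByExpr, 10 counts) was passed by 8 of the 10 genes, not by Tgfb1 and Smad2. For the second scale, library sizes were the summed counts of the 20 microglia core genes, or of 20 myeloid genes that include none of the TGF-beta dependent list. Genes with 3 counts or fewer in a group were given as a ratio with an exact interval, which covers counting error only.

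On simulated counts for 9871 genes, 82.0% of 50 genes raised 4-fold, 18.0% of 50 genes raised 2-fold, 47.5% of 40 genes lowered 4-fold, 9.3% of 43 genes lowered 2-fold and 0 of 9688 unchanged genes were called. The pairing comes from the animals, since by the study's methods each mouse gave both populations, and samples were matched by the number in their labels. Within mice matched in this way the deviations from the group means correlated at 0.12, −0.002, 0.06, 0.0008 and 0.02. Samples of a group differed beyond counting noise in all 20 pairs (chi-square per degree of freedom 2.04 to 5.24). The genes, lists and tests were chosen with earlier results of these data known. All 10 genes were named, and from each other list up to 4 called genes in each direction, those of smallest p, as were the 5 genes most correlated with Tgfbr1 and with Pmepa1. Ratios between genes and the further list genes given with values were chosen after their values were seen. Of the correlated genes, 1 is not reported here.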

Additional observations from a re-analysis of the deposited data

Results flagged for a closer look

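In groups of 5 samples, a sample was listed when its gap to the nearest other sample exceeded Dixon's 95% critical value (0.71 of the range). This was checked in 68 groups, the 2 populations for each named gene, for the summed 10 genes and for the microglia core list, and 4 stood apart where chance alone gives about 1 in 20, or 3.4. The RFPneg sample of mouse 1 was high for Pmepa1 (601.4 CPM, the other 4 between 472.5 and 502.4) and for Fcrls (354.1 CPM, the others between 174.3 and 206.2). The same sample had the highest share of microglia core counts in RFPneg (2.62%). The RFPneg sample of mouse 2 was high for Acvrl1 (112.0 CPM, the others between 37.9 and 53.2). The RFPpos sample of mouse 5 was low for C1qa (2100.0 CPM, the others between 2635 and 2723), and it had the lowest share of microglia core counts in RFPpos (3.64%).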

How the results depend on the processing

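Pmepa1 and Tgfbr1 were called higher under each alternative that scales to all counts and with each mouse left out. Of the 10 TGF-beta signalling genes, 2 to 3 were called higher and 0 lower when each mouse was left out, and 2 to 3 were above 1. Over all genes tested in these fits, 3.70% to 5.13% were called higher and 6.40% to 7.68% lower, and 2.79% to 3.77% were called higher and above 1. For the other pathway genes (5 higher and 8 lower), leaving out each mouse gave 3 to 5 higher and 6 to 9 lower. DESeq2's Wald test gave 2 higher (2.81% of all genes tested), and the minimum count per sample gave 5 lower (11.6%), with fewer genes tested. Scaling to the microglia core or to the myeloid genes gave 0 of the 10 genes higher (0 above 1) and 3 lower, and 0 of 40 other pathway genes higher and 21 lower, where 51.4% (core) and 52.0% (myeloid) of all genes tested were called lower. This scaling gave negative log2 fold changes (core, then myeloid) for Tgfb1 (−0.68, −0.70), Tgfbr2 (−0.62, −0.63), Smad2 (−0.019, −0.031), Smad3 (−0.35, −0.36), Ski (−0.33, −0.35), Nrros (−0.47, −0.48), Skil (−0.18, −0.19), Crebbp (−0.35, −0.36), Ep300 (−0.40, −0.42) and Nuak1 (−0.20, −0.22). These scalings count relative to genes that were themselves higher in RFPpos. With each mouse left out Smad4 ranged from −0.38 to 0.087, above 0 without mouse 3 (0.087) and mouse 5 (0.014), and the cause was not tested. On the core scale, 2 to 3 of the 10 genes were called lower and 0 higher with each mouse left out, an alternative chosen after seeing the data. In these fits 40.5% to 55.0% of all genes tested were called lower and 0.0624% to 0.184% higher.

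Without the replicate block by mouse, the counts were the same, at 3 higher and 0 lower of the 10 genes, and 5 higher and 8 lower of the other pathway genes. In that fit 5.05% of all genes tested were called higher and 8.57% lower. Tgfb1 and Smad2 had fewer than 100 counts over the 10 samples.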
